A study of Mus musculus with 30 samples.

Results

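C2C12 mouse muscle precursor cells that differentiated in the presence of 2 µM hexavalent chromium, Cr(VI), were compared between day 4 and day 2 of differentiation. The 6 RNA-seq libraries of the comparison, 3 from day 4 and 3 from day 2, were chosen by the column names of the deposited table, out of 30 libraries in all. C2C12 is an established line of mouse myoblasts. Per the labels, the cells grew in medium rich in fetal bovine serum, and differentiation was started by a switch to horse serum medium to which potassium chromate was added. The series also holds control cells in the same medium with 0 µM Cr(VI), cells given 5 µM Cr(VI), and days 0 and 1. Of these, the day 4 and day 2 groups at 0 µM and at 5 µM, with 3 libraries each, serve here to show where the progress at 2 µM differed. Every group shares the same line, the same differentiation medium and the same RNA extraction, and no group carries a genetic change. The labels call the 3 samples of a group biological replicates without saying whether they were separate cultures, so the p-values measure the spread between these samples. Day and any handling that differed between the days cannot be told apart, and cell numbers were not given, so fewer cells of a type and less RNA per cell cannot be told apart in these bulk samples.

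The 6 libraries held 21.8 to 26.9 M reads, against 18.5 to 26.9 M over all 30 libraries. Values are given as scaled CPM, reads of a gene per M reads with a further scaling between libraries by the authors, and 1 read was worth 0.038 to 0.0473 scaled CPM in these libraries. Scaled CPM is not corrected for gene length, so levels are compared between samples and not between genes. All differences are on the log2(scaled CPM + 1) scale, on which the change of a low gene is understated. The 9 defining muscle markers were all detected, with a summed level of 11303 to 13089 scaled CPM on day 4 and 8502 to 9161 on day 2. Of 8 leukocyte and 8 adipocyte markers, 6 each were listed at 0 in all 6 libraries, Ptprc, Lyz2 and Adipoq among them. The highest of the others were Cd14, at up to 4.79 scaled CPM, and Pparg, at up to 12.5. Of 8 bone and cartilage markers 3 were listed at 0 in all 6 libraries, and Sox9 reached 72.1 scaled CPM. A listed 0 may be a failed estimate. The 13 protein-coding genes of the mitochondrial genome took 9.91 to 11.6% of reads on day 4 and 8.19 to 8.33% on day 2.

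Skeletal muscle forms when myoblasts leave the cell cycle, fuse into multinucleated myotubes and build sarcomeres. The MyoD family of transcription factors starts this programme, and MEF2 proteins bind with them at many contractile genes. Embryonic isoforms of the contractile proteins come first and are joined by adult fast and slow isoforms as myotubes mature, together with the Z-disc, the calcium release apparatus and the energy supply of the fibre. Chromate enters cells through anion transporters and is reduced inside them, which gives reactive intermediates and DNA damage. Cells answer oxidants through NRF2, which binds antioxidant response elements, and excess metal through MTF1, which binds metal response elements in metallothionein genes.

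The myosin heavy chain genes carried some of the largest rises of this period, and the promoters of 3 of them are shown for the MEF2 motif they share. Myh1 and Myh4 encode adult fast myosin heavy chains and Myh8 encodes the perinatal chain. The sequences run 5′ to 3′ from 250 bases before to 50 bases after the annotated start, are taken from RefSeq on build GRCm38.p6, and lie on the + strand of chromosome 11. They are Myh1 at chr11:67199852-67200151, Myh4 at chr11:67237562-67237861 and Myh8 at chr11:67276874-67277173. Capitals mark a match to the MEF2 motif, searched on both strands as a fixed letter pattern. The pattern reads C or T, then TA, then a run of A or T of fixed length, then TA, then A or G.
Myh1: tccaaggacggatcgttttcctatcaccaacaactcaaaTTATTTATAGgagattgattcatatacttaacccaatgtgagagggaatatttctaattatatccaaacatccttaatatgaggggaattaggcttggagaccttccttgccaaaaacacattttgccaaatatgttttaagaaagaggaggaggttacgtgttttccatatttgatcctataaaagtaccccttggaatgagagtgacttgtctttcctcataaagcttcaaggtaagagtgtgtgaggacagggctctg
Myh4: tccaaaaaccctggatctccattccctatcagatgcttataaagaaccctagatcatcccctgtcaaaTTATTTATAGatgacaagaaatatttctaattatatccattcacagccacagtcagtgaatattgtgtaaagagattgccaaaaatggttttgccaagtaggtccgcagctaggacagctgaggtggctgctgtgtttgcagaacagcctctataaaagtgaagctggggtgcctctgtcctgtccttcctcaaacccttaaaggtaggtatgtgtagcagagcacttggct
Myh8: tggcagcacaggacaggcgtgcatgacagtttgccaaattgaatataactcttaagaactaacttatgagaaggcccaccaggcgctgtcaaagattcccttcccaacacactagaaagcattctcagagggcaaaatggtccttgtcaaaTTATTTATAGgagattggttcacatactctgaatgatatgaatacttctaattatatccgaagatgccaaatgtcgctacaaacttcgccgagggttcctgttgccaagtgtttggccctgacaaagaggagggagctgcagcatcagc
The match began 211 bases before the start in Myh1, 182 bases before it in Myh4 and 99 bases before it in Myh8, and its letters were the same in all 3. A MEF2 match was present in 3.19% of 32851 mouse promoters of this length. It was present in 7 of the 21 Z-disc, M-band and assembly genes with a listed promoter (33.3%) in 2 of 12 fast sarcomere genes (16.7%) and in 2 of 12 calcium handling genes (16.7%). It was present in 1 of 10 neuromuscular junction genes (10%), 1 of 12 fusion genes (8.33%), 1 of 13 embryonic and slow sarcomere genes (7.69%), 1 of 13 muscle regulators (7.69%) and 1 of 17 muscle energy genes (5.88%). Lists outside muscle also held it, with 2 of 14 immediate early genes (14.3%), 1 of 11 Notch pathway genes (9.09%) and 2 of 25 mitosis genes (8%). It was absent from the 17 collagens and 21 nuclear respiratory chain genes with a listed promoter. List shares count a gene once if any of its promoters matched, while the 3.19% counts promoters. A match describes the letters and is not a measured binding site.

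Between day 2 and day 4 the 2 µM cultures gained muscle transcripts and lost transcripts of dividing cells and of the extracellular matrix. Of 12480 genes tested, 3669 (29.4%) changed, of which 1827 (14.6%) were higher on day 4 and 1842 (14.8%) were lower (limma, Benjamini-Hochberg adjusted p below 0.05). The change was 2-fold or more in 504 of the higher genes (4.04% of those tested) and in 362 of the lower ones (2.9%). All 3 day 4 libraries lay above all 3 day 2 libraries for 2695 genes (21.6%) and below them for 2727 (21.9%). The median log2 change over all genes tested was -0.01.

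The transcription factors of the muscle programme moved apart. Mef2c, a MEF2 family member that sustains contractile gene expression, stood at 468, 468 and 460 scaled CPM on day 4, against 70.3, 66.2 and 65.7 on day 2. The 6 values of Mef2c fell into separate groups by day (log2 difference 2.77 ± 0.10 SE, adjusted p = 8.4e-19). Myf6, the MyoD family member of late differentiation, rose by 1.84, and Rbfox1, a splicing factor of mature muscle, by 1.56. Myog, the myogenin gene that drives entry into terminal differentiation, had 727, 779 and 797 scaled CPM on day 4, against 821, 854 and 880 on day 2. The day 4 values of Myog all lay below those of day 2, but the log2 difference of -0.15 ± 0.08 SE did not pass the test (adjusted p = 0.19). Pax7, which marks muscle stem cells and reserve myoblasts, had 16.7, 16.0 and 18.7 scaled CPM on day 4, against 37.5, 45.3 and 48.5 on day 2, and fell by 1.30 (adjusted p = 3.2e-07). Myf5, an early determination factor, fell by 0.51. Of 17 muscle regulators that passed the filter, of 18 listed, 7 rose and 5 fell.

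The contractile lists rose nearly whole. All 16 fast sarcomere genes rose, with a median log2 change of 1.16, and 12 of 13 embryonic and slow sarcomere genes rose, with a median of 1.22. Neither list had a gene that fell, against 14.8% lower among all genes tested. Myh1 had 618, 923 and 731 scaled CPM on day 4, against 65.5, 79.0 and 79.5 on day 2 (log2 difference 3.31 ± 0.14 SE, adjusted p = 6.3e-17). Myh4 had 78.8, 112 and 87.7 scaled CPM on day 4, against 3.80, 5.42 and 6.93 on day 2 (3.89 ± 0.25 SE, adjusted p = 5.0e-13). Myh8 had 198, 286 and 226 scaled CPM on day 4, against 28.6, 32.4 and 40.0 on day 2 (2.78, adjusted p = 7.7e-15). In each of the 3 genes whose promoters are printed above, every day 4 library lay above every day 2 library, and replicate 2 was the highest on day 4. The embryonic heavy chain gene Myh3 was already high on day 2 and changed less, with 884, 1412 and 1108 scaled CPM on day 4 and 612, 683 and 675 on day 2 (0.76, adjusted p = 1.5e-04). The mean of day 4 over that of day 2 was 10.1 for Myh1, 17.3 for Myh4, 7.04 for Myh8 and 1.73 for Myh3. The neighbouring Myh genes are near-identical in parts, and whether the counting divided shared reads between them was not given. Myl2, the slow and cardiac regulatory light chain, had the largest log2 rise among genes that met the rule for naming, with 79.5, 56.5 and 67.1 scaled CPM on day 4 and 1.47, 2.63 and 1.20 on day 2 (4.66). Mybpc1, a slow myosin-binding protein, rose by 3.41, and Acta1, the skeletal actin that was abundant on both days, by 0.70.

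Proteins that hold the sarcomere together and bring calcium to it followed the same direction. Of 27 Z-disc, M-band and assembly genes that passed the filter, of 30 listed, 25 rose and none fell (median 1.06). Tcap, the telethonin gene whose product caps titin at the Z-disc, had 71.8, 83.9 and 80.5 scaled CPM on day 4, against 3.27, 5.53 and 5.57 on day 2 (3.81, adjusted p = 7.7e-13). Ttn, the titin gene, rose by 1.35, Csrp3, a Z-disc LIM protein, by 1.95, and Myoz1, a calcineurin-binding Z-disc protein, by 1.62. Of 21 calcium handling genes that passed the filter, of 22 listed, 18 rose and none fell (median 0.86). Casq1, the calsequestrin that stores calcium in the sarcoplasmic reticulum of fast fibres, had 132, 117 and 128 scaled CPM on day 4, against 10.9, 13.7 and 14.5 on day 2. For Casq1 the lowest day 4 library stood well above the highest day 2 library (3.18, adjusted p = 8.8e-14). Atp2a1, the fast-fibre calcium pump, had 1455, 1655 and 1646 scaled CPM on day 4, against 499, 518 and 576 on day 2 (1.58). Trdn, encoding triadin, and Cacna1s, the voltage sensor of the T-tubule, rose by 1.49 and 1.44. Cav3, the muscle caveolin of the T-tubule and surface membrane, rose to 140, 117 and 135 scaled CPM on day 4, against 21.4, 22.6 and 23.8 on day 2 (2.48), and Trim72, a membrane repair protein, rose by 1.79.

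Fusion genes did not share a direction. Tmem8c, encoding the fusion protein myomaker, had 1021, 1031 and 1024 scaled CPM on day 4, against 602, 637 and 699 on day 2, and rose by 0.67 (adjusted p = 1.1e-08). Gm7325, encoding its partner myomerger, had a log2 difference of -0.20 that did not pass (adjusted p = 0.22). Dock1, a guanine nucleotide exchange factor needed for fusion, fell by 0.78. Of 16 fusion and membrane repair genes that passed the filter, of 20 listed, 4 rose and 7 fell. At the neuromuscular junction, 10 of 14 genes rose and none fell (median 0.37). Colq, the collagen tail that anchors acetylcholinesterase, rose by 2.12. Chrne, the adult subunit of the acetylcholine receptor, had 2.80, 2.85 and 0.945 scaled CPM on day 4 and was listed at 0 in the 3 day 2 libraries. A listed 0 may be a failed estimate in this table, so no fold is given for Chrne.

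**Figure D1:**
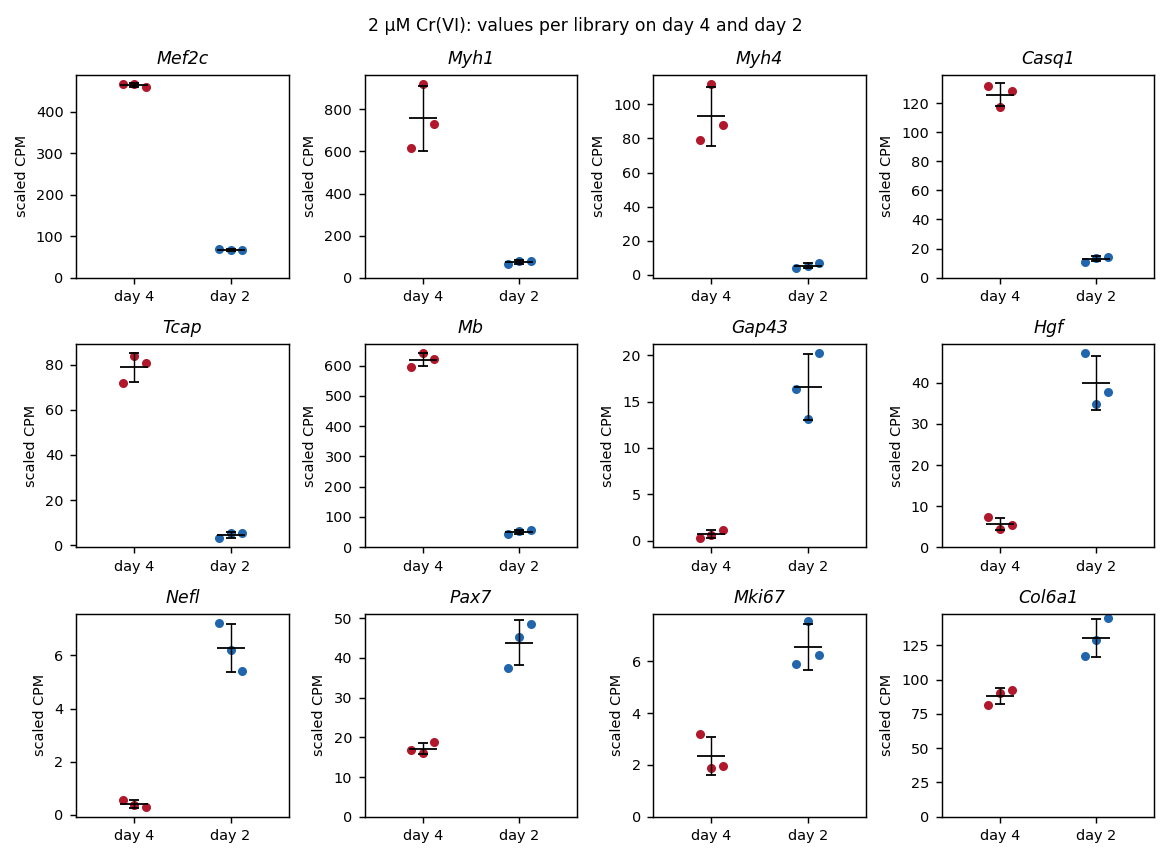
Scaled CPM of 12 genes in the 6 libraries given 2 µM Cr(VI), with day 4 at the left and day 2 at the right of each panel; points are libraries and bars show the mean ± SD of 3 libraries. Mef2c, Myh1, Myh4, Casq1, Tcap and Mb stood higher in all 3 day 4 libraries than in any day 2 library. Gap43, Hgf, Nefl, Pax7, Mki67 and Col6a1 stood lower in all 3. For Myh4, Tcap, Mb, Gap43, Hgf and Nefl the rule for naming the largest changes required this.

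Energy supply rose with the contractile genes. Of 21 muscle energy genes that passed the filter, of 22 listed, 17 rose and 1, Lpl, fell (median 1.05); the fall of Lpl was not called without 2 µM day 2 replicate 1 or without 2 µM day 4 replicate 3. Mb, encoding the oxygen store myoglobin, had 597, 641 and 621 scaled CPM on day 4, against 43.7, 53.7 and 56.5 on day 2. The mean of Mb on day 4 was 12.1 times that on day 2 (log2 difference 3.58 ± 0.12 SE, adjusted p = 2.5e-19). Cd36 and Fabp3, which take up and carry fatty acids, rose by 2.52 and 2.14, Pygm, the glycogen phosphorylase of muscle, by 1.76, and Ckm, the muscle creatine kinase, by 1.05. Of 30 genes of the citric acid cycle and fatty acid oxidation, 13 rose and 1 fell (46.7% changed, against 29.4% of all genes tested). Idh3a rose by 0.59 and Idh2 fell by 0.54, and 2 genes of this list fell without 2 µM day 4 replicate 2. Of 13 genes of the mitochondrial genome, 10 rose (median 0.36), but only 2 were called without 2 µM day 4 replicate 1, the library with the highest share of mitochondrial reads. Of 30 nuclear genes of the respiratory chain, 8 rose and none fell, so that 26.7% changed, below the 29.4% of all genes tested. Without 2 µM day 4 replicate 1 only 4 were called higher.

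Transcripts of dividing cells declined. Of 30 mitosis genes, 26 fell and none rose (median -1.14), and of 29 genes of the G1/S transition and DNA replication, 20 fell and none rose (median -0.79). Top2a, the topoisomerase of dividing cells, had 33.8, 32.6 and 32.8 scaled CPM on day 4, against 97.2, 92.0 and 91.1 on day 2 (-1.47, adjusted p = 2.8e-09). Mki67, the Ki-67 proliferation marker, had 3.21, 1.90 and 1.94 scaled CPM on day 4, against 5.88, 7.54 and 6.23 on day 2 (-1.19, adjusted p = 0.0045, and 0.079 in a fit to all 30 libraries). In both genes the day 4 libraries all lay below the day 2 libraries. Kif11, a spindle motor, fell by 1.45, Bub1, a spindle checkpoint kinase, by 1.30, Uhrf1, which maintains DNA methylation during replication, by 1.62, and Ccne1, the cyclin of S phase entry, by 1.37. Cdkn1a, the p21 inhibitor of cyclin-dependent kinases that both p53 and MyoD can induce, had 2761, 2813 and 2928 scaled CPM on day 4, against 1635, 1835 and 2097 on day 2 (0.62, adjusted p = 1.3e-06). Ccnd1, the cyclin D1 gene, had a log2 difference of 0.04 that did not pass (adjusted p = 0.85). Of 26 p53 target genes 9 rose and 1, Ckap2, fell, so that 38.5% changed, against 29.4% of all genes tested, with Ei24, a p53-induced membrane protein, up by 0.86 and Eda2r, a TNF receptor family member, up by 0.77. The falls in this list numbered 0 to 2 with 1 library left out, and moved past 1.5 times without 2 µM day 2 replicate 1 or 2 and without 2 µM day 4 replicate 2 or 3. Of 32 DNA repair genes 15.6% changed, below the 29.4% of all genes: 5 fell and none rose, Exo1, a nuclease of recombination and mismatch repair, by 1.38 and Xrcc5, the Ku80 end-joining protein, by 0.89; the count was 2 to 6 when 1 library was left out, and moved past 1.5 times without 2 µM day 2 replicate 1 or 2 and without 2 µM day 4 replicate 1 or 3.

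The largest falls included Gap43 and Nefl, known from neurons, and the secreted factors Hgf and Ptn. Gap43, a growth cone protein, had 0.321, 0.608 and 1.13 scaled CPM on day 4, against 16.4, 13.1 and 20.2 on day 2 (-3.39, adjusted p = 2.0e-09). Hgf, the hepatocyte growth factor that activates muscle stem cells, had 7.25, 4.41 and 5.34 scaled CPM on day 4, against 47.3, 34.8 and 37.9 on day 2 (-2.63, adjusted p = 9.5e-12). Nefl, the light neurofilament, had 0.551, 0.380 and 0.284 scaled CPM on day 4, against 7.23, 6.20 and 5.40 on day 2 (-2.37, adjusted p = 3.4e-07). None of these 3 genes overlapped between the days, which the rule for naming the largest changes required. Ptn, the growth factor pleiotrophin, fell by 2.55. Among the 8 largest rises outside muscle structure were Cd24a, a surface glycoprotein, with 65.9, 56.6 and 50.1 scaled CPM on day 4 and 1.59, 2.28 and 2.06 on day 2, and Tnfrsf19, a TNF receptor family member, with 35.7, 42.4 and 37.8 on day 4 and 2.49, 2.43 and 2.06 on day 2. Fst, encoding the activin and myostatin antagonist follistatin, had 256, 276 and 273 scaled CPM on day 4, against 47.2, 46.4 and 44.1 on day 2 (2.52). Fst was part of a TGF-beta family list in which 5 of 16 genes that passed the filter rose, Tgfb2 by 1.16 and Inhba by 1.01. In this list 1, Id3, an inhibitor of MyoD family binding, fell, so that 37.5% changed, against 29.4% of all genes tested. Without 2 µM day 4 replicate 3 none fell in this list, and without 2 µM day 4 replicate 2 the falls numbered 2.

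In the insulin-like growth factor axis and the Notch pathway, more of the genes that changed were lower than higher. Igfbp2 had 96.0, 93.6 and 76.1 scaled CPM on day 4, against 360, 349 and 401 on day 2 (-2.06), and Igfbp4 and Igfbp5 fell by 1.18 and 0.95. Igf2, the growth factor that C2C12 cells make during differentiation, had 273, 254 and 249 scaled CPM on day 4, against 148, 180 and 182 on day 2, and rose by 0.61 (adjusted p = 9.7e-05), though not in a fit to all 30 libraries (adjusted p = 0.43). Of 15 genes of this axis 8 fell and 3 rose, and the count of rises was 1 to 3 with 1 library left out, moving past 1.5 times without 2 µM day 2 replicate 1 or 2 and without 2 µM day 4 replicate 1. Notch3, a receptor that restrains muscle differentiation, had 66.8, 68.8 and 81.3 scaled CPM on day 4, against 203, 208 and 212 on day 2 (-1.52, adjusted p = 3.2e-12). Its relative Notch2 fell by 1.03, and Hey1 and Heyl, transcriptional repressors induced by Notch, fell by 1.52 and 1.23. Of 14 Notch pathway genes that passed the filter 5 fell, 1 rose and 8 were not called. The share that changed was 42.9%, against 29.4% of all genes tested.

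Most transcripts of the extracellular matrix that changed were lower. Of 18 collagen genes that passed the filter, of 21 listed, 12 fell and 1 rose (median -0.54). Col3a1, a fibrillar collagen, had 841, 985 and 988 scaled CPM on day 4, against 2147, 2084 and 2189 on day 2 (-1.19, adjusted p = 2.0e-12). Col1a1, the main chain of type I collagen, had 63.0, 85.6 and 73.4 scaled CPM on day 4, against 62.7, 64.8 and 65.1 on day 2. The days overlapped for Col1a1, and the log2 difference of 0.19 did not pass (adjusted p = 0.3). The collagen that rose was Col25a1, a membrane collagen required for the innervation of muscle, with 28.6, 27.4 and 22.6 scaled CPM on day 4 and 0, 0.0392 and 0.495 on day 2. Of 29 matrix glycoproteins and proteoglycans 14 fell and 6 rose, with Thbs2, a thrombospondin, down by 1.49, Nid1, a basement membrane linker, down by 1.46, and the elastic fibre proteins Mfap5 and Fbln5 up by 2.75 and 2.21. Mmp2 and Mmp19, matrix metalloproteinases, fell by 0.81 and 1.02.

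Secretory and lipid synthesis genes were also lower. Of 19 chaperones of the endoplasmic reticulum 11 fell and 1 rose (median -0.35), with Pdia4, a disulfide isomerase, down by 0.82 and Hsp90b1 down by 0.74. Of 20 sterol synthesis genes 13 fell and 1, Dhcr7, rose (median -0.29), with Fdft1, the squalene synthase gene, down by 0.65. Of 11 fatty acid synthesis genes 8 fell and 1, Srebf1, rose, the rise not being called without 2 µM day 2 replicate 2 or without 2 µM day 4 replicate 2 or 3. Among the falls were Elovl6, a fatty acid elongase, down by 1.15, and Fads2, a desaturase, down by 0.66. Among 18 heat shock genes 6 rose and 2 fell (median -0.07), so that 44.4% changed, against 29.4% of all genes tested. Among the rises were the small chaperones Hspb7, up by 1.72, Hspb2 by 1.06, Hspb8 by 0.87 and Cryab by 0.83. The falls numbered 1 or 2 with 1 library left out, and moved past 1.5 times without 2 µM day 2 replicate 3 and without 2 µM day 4 replicate 1. Of 19 proteolysis and autophagy genes 7 rose and 4 fell, so that 57.9% changed, against 29.4% of all genes tested. Among them were the muscle ubiquitin ligase components Fbxo40 and Trim63, up by 2.77 and 1.11, and Fbxo32, down by 0.39. Of 14 interferon and antigen presentation genes that passed the filter 5 fell and none rose, H2-D1, a class I heavy chain, by 1.02 and B2m, its light chain, by 0.68. In this list 35.7% changed, against 29.4% of all genes tested.

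The lists that answer oxidants and amino acid stress had medians near 0 over these days at 2 µM. The share of members that changed was 31% for NRF2 targets, 13% for ATF4 and amino acid supply and 46.7% for metal and sulfate handling, against 29.4% of all genes tested. Of 29 NRF2 target genes, of 30 listed, 7 fell and 2 rose (median -0.04), and the count of rises was 1 to 3 with 1 library left out, moving past 1.5 times without 2 µM day 2 replicate 2 or 3 and without 2 µM day 4 replicate 2. The largest falls were in Gstm2, a glutathione transferase, with 8.67, 9.42 and 5.10 scaled CPM on day 4 and 22.9, 18.4 and 24.0 on day 2 (-1.41), Gsta4, another transferase (-1.05), and G6pdx, which supplies NADPH (-1.05). Nqo1 and Hmox1, the quinone reductase and heme oxygenase often used as NRF2 readouts, had log2 differences of 0.17 and 0.24 that did not pass. Of 23 genes of ATF4 and amino acid supply 3 rose and none fell; the count was 2 to 5 with 1 library left out, and moved past 1.5 times without 2 µM day 4 replicate 1. Nupr1, a stress-induced chromatin protein in this list, rose by 0.89, and Ddit3, the CHOP transcription factor, had a log2 difference of -0.11 that did not pass. Mt2, a metallothionein, had 99.6, 83.2 and 72.4 scaled CPM on day 4 and 92.3, 80.5 and 84.3 on day 2, with overlapping days (-0.02, adjusted p = 0.92). Of 15 metal and sulfate handling genes that passed the filter, of 16 listed, 3 rose and 4 fell, with Tfrc, the transferrin receptor, up by 0.83. Without 1 library the rises in this list numbered 1 or 2, and moved past 1.5 times without 2 µM day 2 replicate 1 and without 2 µM day 4 replicate 1 or 3. The falls numbered 2 or 3, and moved past 1.5 times without 2 µM day 2 replicate 3 and without 2 µM day 4 replicate 2.

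**Figure D2:**
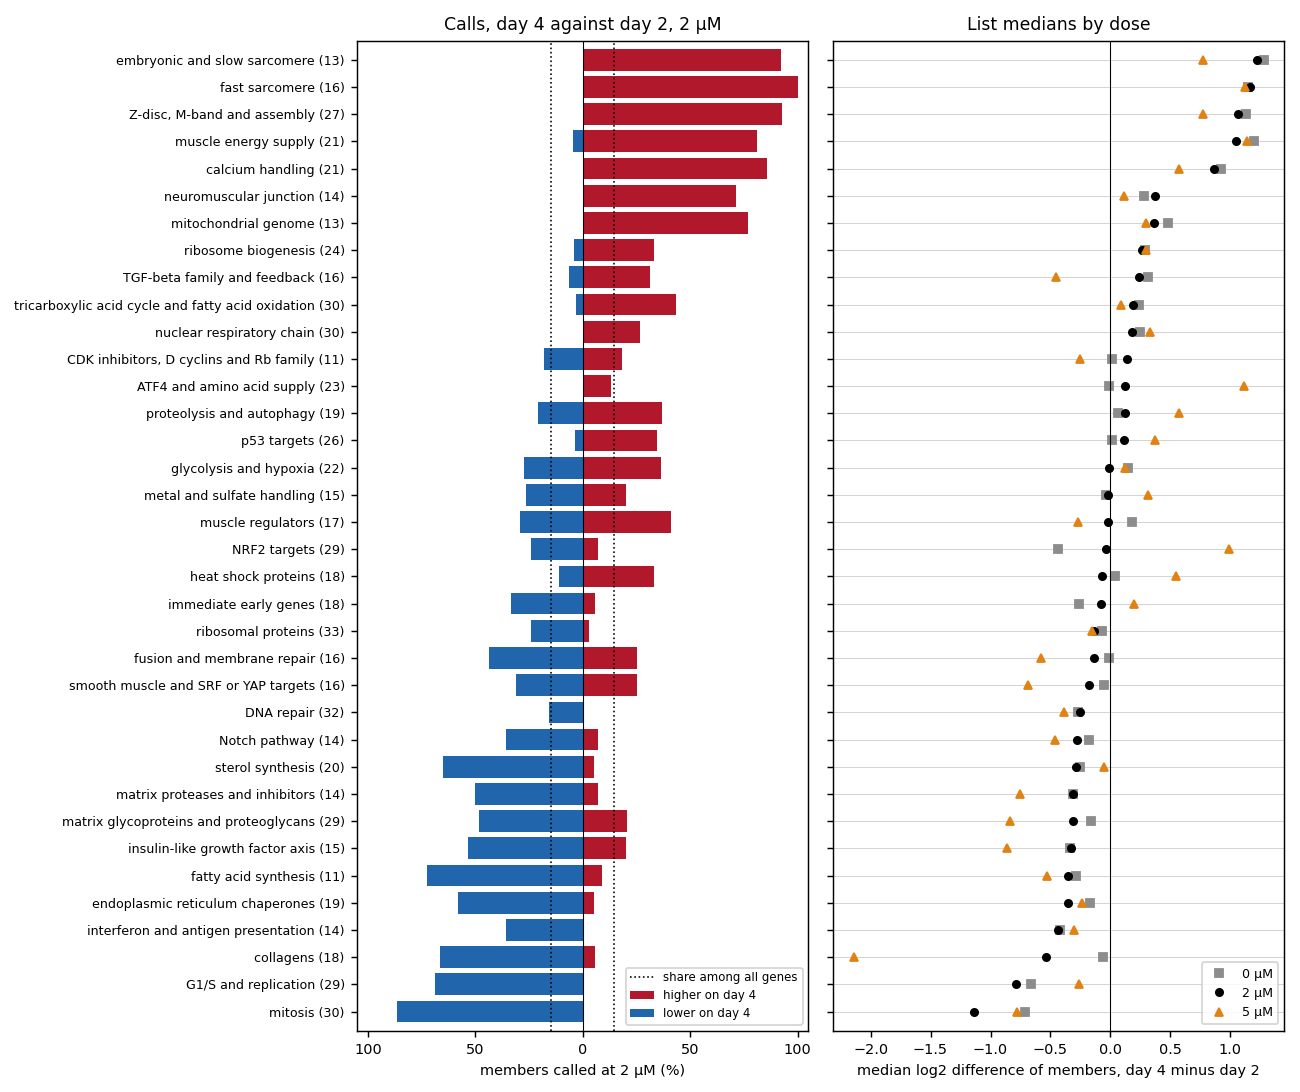
Left, percent of the members of each gene list (number that passed the filter in brackets) that were higher (red, to the right) or lower (blue, to the left) on day 4 than on day 2 at 2 µM Cr(VI), with dotted lines at the percent over all genes tested, 14.6 higher and 14.8 lower. Right, median log2 change of each list at 0, 2 and 5 µM; the NRF2 target median was -0.44, -0.04 and 0.99, and that of the collagens -0.06, -0.54 and -2.14.

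The next comparison asked whether the progress from day 2 to day 4 differed between 2 µM and 0 µM cultures. For most genes no difference passed the test, and the contractile, Z-disc, calcium, energy, mitosis and replication lists held no gene for which it did. Among the genes that differed were 6 collagens, whose change was lower at 2 µM, and Aqp1, Thbd, Hdc and Gstm1, whose change was higher. Matrix glycoproteins and proteoglycans went both ways. In all 79 genes differed (0.633% of those tested), 60 with a higher change at 2 µM (0.481%) and 19 with a lower one (0.152%), and 1141 had an unadjusted p below 0.05. The count was 38 to 124 when 1 of the 12 libraries was left out. It moved past 1.5 times without 0 µM day 2 replicate 1 (42) or 3 (39), without 0 µM day 4 replicate 1 (49) or 2 (124), without 2 µM day 2 replicate 1 (48) or 2 (38), and without 2 µM day 4 replicate 1 (47). A fit to all 30 libraries gave 34 genes and DESeq2 on recovered reads gave 137.

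Both doses moved many of the same genes. At 0 µM 3755 genes changed (30.1%), 1761 of them higher on day 4 (14.1%) and 1994 lower (16%). Of these, 2524 also changed at 2 µM, 68.8% of the genes called at 2 µM and 67.2% of those called at 0 µM, and 2516 of the 2524 had the same sign. The changes at 2 µM and at 0 µM share no library. The fast sarcomere list rose whole at 0 µM too, with a median of 1.16 at 2 µM and 1.15 at 0 µM. No member of it differed in its change, but the summed level of the list was lower at 2 µM on both days. On day 4 the sum was 20631 to 21883 scaled CPM at 2 µM and 25328 to 28917 at 0 µM. On day 2 it was 11224 to 11710 at 2 µM and 14749 to 15441 at 0 µM. The embryonic and slow sarcomere sum on day 4 was 14559 to 15290 at 2 µM and 18722 to 21539 at 0 µM. Myh4 changed by 3.89 at 2 µM and 4.08 at 0 µM, and Tcap by 3.81 at 2 µM and 3.84 at 0 µM. A p that misses the threshold does not show that the doses act alike. For Myh4 the difference of changes was -0.19 ± 0.36 SE and for Tcap -0.03 ± 0.36 SE. Of 30 mitosis genes 26 fell at 2 µM and 22 at 0 µM, with medians of -1.14 at 2 µM and -0.71 at 0 µM. No member passed for the difference of changes, but its median was -0.37 and it was above 0 in only 2 members. The summed level of this list on day 4 was 291 to 321 scaled CPM at 2 µM and 634 to 666 at 0 µM. On day 2 the sum was 670 to 739 at 2 µM and 1073 to 1113 at 0 µM.

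**Figure D3:**
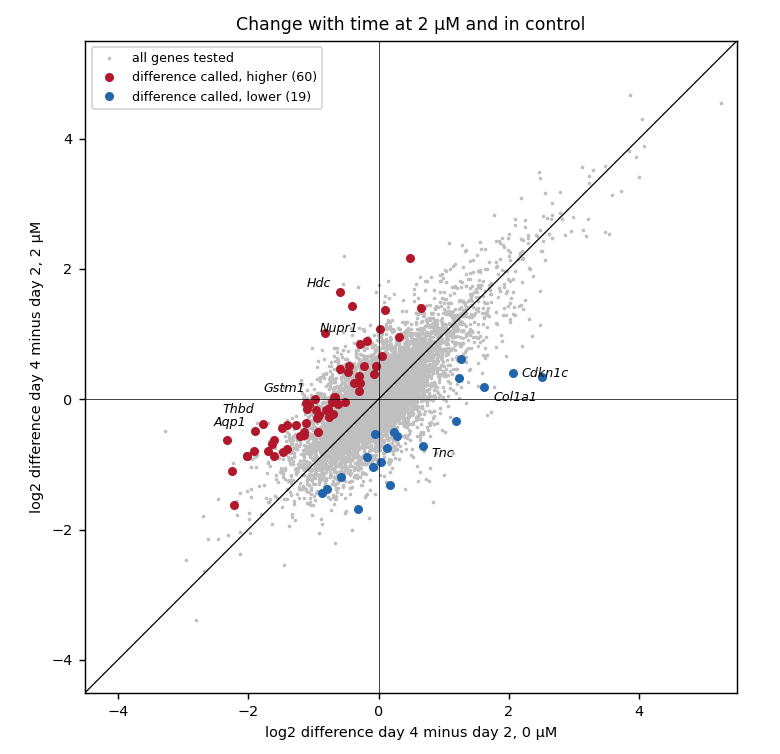
Log2 change from day 2 to day 4 of each of 12480 genes at 0 µM (horizontal axis) and at 2 µM (vertical axis), with 60 genes whose change was higher at 2 µM in red, 19 whose change was lower in blue, and all other genes in grey. The median absolute difference between the changes at 2 µM and at 0 µM was 0.18.

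Of the 60 genes with a higher change at 2 µM, 25 fell at 2 µM and 47 fell at 0 µM. Aqp1, a water channel of endothelium and many other cells, had 60.1, 63.9 and 75.7 scaled CPM on day 4 and 86.7, 94.2 and 99.4 on day 2 at 2 µM, against 17.0, 17.4 and 16.5 on day 4 and 67.9, 66.3 and 62.4 on day 2 at 0 µM. Aqp1 fell at both doses, by 0.49 at 2 µM and by 1.89 at 0 µM, and the difference of 1.40 ± 0.13 SE passed (adjusted p = 8.8e-08). Thbd, the thrombomodulin gene, had 69.1, 64.1 and 77.3 scaled CPM on day 4 and 88.0, 94.3 and 91.2 on day 2 at 2 µM, against 12.8, 12.7 and 16.0 on day 4 and 49.1, 51.7 and 47.3 on day 2 at 0 µM (1.40 ± 0.14 SE, adjusted p = 1.1e-07). On both days every 2 µM library of Aqp1 and Thbd lay above every 0 µM library. Of 6 defining endothelial markers, Kdr, Tie1 and Emcn were listed at 0 in all 6 libraries at 2 µM. In all, 5 stayed below 1 scaled CPM there, and Tek reached 1.6. Which cells held the Aqp1 and Thbd transcripts was not tested. Serpinb9b, a serine protease inhibitor, changed by -0.63 at 2 µM and -2.33 at 0 µM (1.70 ± 0.16 SE), and Il33, an alarmin cytokine, by -1.10 at 2 µM and -2.25 at 0 µM (1.15 ± 0.15 SE). Hdc, the enzyme that makes histamine, had 9.54, 10.9 and 7.32 scaled CPM on day 4 and 1.02, 3.61 and 2.68 on day 2 at 2 µM, against 1.26, 1.17 and 0.603 on day 4 and 2.01, 1.78 and 2.17 on day 2 at 0 µM (2.23 ± 0.39 SE, adjusted p = 0.0023). Dcn, the proteoglycan decorin, named after its values were seen, changed by -0.44 at 2 µM and -1.48 at 0 µM (1.05 ± 0.10 SE). These 6 genes passed with each of the 12 libraries left out in turn.

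Genes of glutathione and xenobiotic handling were among those with the higher change. Gstm1, a glutathione transferase, had 80.6, 68.6 and 78.5 scaled CPM on day 4 and 81.7, 70.5 and 75.4 on day 2 at 2 µM, against 26.5, 25.1 and 29.0 on day 4 and 48.7, 52.7 and 61.0 on day 2 at 0 µM. Gstm1 overlapped between the days at 2 µM and fell at 0 µM, a difference of 0.98 ± 0.13 SE (adjusted p = 4.7e-05). Ephx1, an epoxide hydrolase named after its values were seen, differed by 0.67 ± 0.12 SE, and Aldh3a1, an aldehyde dehydrogenase, by 1.06 ± 0.21 SE, the last not called without 2 µM day 2 replicate 2. Srxn1, the sulfiredoxin that restores peroxiredoxins, had 23.7, 21.7 and 20.5 scaled CPM on day 4 and 21.4, 25.1 and 27.3 on day 2 at 2 µM, against 9.60, 12.5 and 9.70 on day 4 and 24.9, 23.6 and 22.7 on day 2 at 0 µM. Srxn1 differed by 0.95 ± 0.21 SE (adjusted p = 0.023) and was called in 5 of 12 omissions, being lost without any 0 µM day 2 library, without 0 µM day 4 replicate 1, without 2 µM day 2 replicate 1 or 2, and without 2 µM day 4 replicate 1. In all, 4 of 29 NRF2 targets had a higher change at 2 µM and none a lower one, and 2 were left without 2 µM day 2 replicate 2. At 2 µM 7 of the 29 fell, against 13 at 0 µM. Nupr1 had 52.5, 41.3 and 51.5 scaled CPM on day 4 and 25.3, 23.6 and 27.9 on day 2 at 2 µM, against 27.2, 24.3 and 35.5 on day 4 and 31.0, 27.8 and 39.0 on day 2 at 0 µM (1.06 ± 0.20 SE, adjusted p = 0.0058), and was not called in the fit to all 30 libraries (adjusted p = 0.32).

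The promoters of Srxn1 and Mt2 are shown because the changes of both genes differed between 2 µM and 5 µM, with RefSeq sequence on GRCm38.p6 over the same span around the start. Srxn1 lies at chr2:152105274-152105573 and Mt2 at chr8:94172368-94172667, both on the + strand. In Srxn1, capitals mark the antioxidant response element core, TGACNNNGC or TGAGNNNGC, and in Mt2 the metal response element core, TGCACNC or TGCGCNC, each searched on both strands.
Srxn1: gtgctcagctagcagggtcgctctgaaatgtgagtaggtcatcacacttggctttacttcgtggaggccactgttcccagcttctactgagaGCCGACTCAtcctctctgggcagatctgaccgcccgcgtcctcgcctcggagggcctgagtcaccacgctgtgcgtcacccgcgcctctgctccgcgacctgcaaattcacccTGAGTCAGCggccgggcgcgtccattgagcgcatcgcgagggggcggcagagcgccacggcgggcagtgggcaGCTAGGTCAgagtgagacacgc
Mt2: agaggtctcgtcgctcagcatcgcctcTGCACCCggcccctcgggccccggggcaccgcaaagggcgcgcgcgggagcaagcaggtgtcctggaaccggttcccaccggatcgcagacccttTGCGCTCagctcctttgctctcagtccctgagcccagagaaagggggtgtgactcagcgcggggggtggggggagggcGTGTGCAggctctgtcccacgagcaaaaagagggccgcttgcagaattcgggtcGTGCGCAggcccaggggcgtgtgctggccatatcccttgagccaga
Srxn1 held 3 matches to the antioxidant core, which was present in 27.8% of 32851 promoters and in 14 of the 23 NRF2 targets with a listed promoter (60.9%). Mt2 held 4 matches to the metal core, which was present in 25.7% of promoters and in 7 of 11 metal and sulfate handling genes (63.6%). Neither core was particular to these lists. The antioxidant core was present in 7 of 9 D cyclin, Rb family and cyclin-dependent kinase inhibitor genes (77.8%) and 9 of 13 sterol synthesis genes (69.2%). The metal core was present in 14 of 20 glycolysis and hypoxia genes (70%) and 15 of 23 G1/S and replication genes (65.2%). Most other lists held each core less often. List shares again count genes, and the shares of all promoters count promoters. Overlapping matches were allowed, and a match describes letters, not binding.

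Of the 19 genes with a lower change at 2 µM, 13 fell at 2 µM, and 7 rose at 0 µM. Col1a1 had 63.0, 85.6 and 73.4 scaled CPM on day 4 and 62.7, 64.8 and 65.1 on day 2 at 2 µM, against 234, 271 and 289 on day 4 and 80.0, 80.2 and 96.2 on day 2 at 0 µM. Col1a1 overlapped between the days at 2 µM and rose by 1.62 at 0 µM, a difference of -1.43 ± 0.19 SE (adjusted p = 3.1e-05). Col1a2, its partner chain, named after its values were seen, changed by -1.04 at 2 µM and by -0.08 at 0 µM (-0.96 ± 0.13 SE), and Col3a1 by -1.19 at 2 µM and -0.57 at 0 µM (-0.62 ± 0.12 SE). In all 6 of 18 collagens had a lower change at 2 µM and none a higher one, and 3 were left without 0 µM day 2 replicate 1. Tnc, the matrix protein tenascin C, had 44.0, 53.9 and 42.8 scaled CPM on day 4 and 78.5, 78.4 and 76.2 on day 2 at 2 µM, against 136, 120 and 136 on day 4 and 76.8, 84.7 and 82.2 on day 2 at 0 µM. Tnc fell at 2 µM and rose at 0 µM, with log2 changes of -0.72 at 2 µM and 0.68 at 0 µM (difference -1.40 ± 0.19 SE, adjusted p = 4.5e-05). Of the 29 matrix glycoproteins and proteoglycans 3 had a lower change at 2 µM, Tnc, Fmod and Fbn1, and 2 a higher one, Dcn and Thbs1, with a list median of 0.03. Without 0 µM day 2 replicate 1 or without 2 µM day 4 replicate 1 only 1 was lower, and it was Tnc. Fbn1 and Thbs1, named after their values were seen, were called in few of the 12 omissions, Fbn1 in 2 and Thbs1 in 3. In both genes the call was lost when any single day 2 library, 0 µM day 4 replicate 1 or 2 µM day 4 replicate 3 was left out. The call was also lost without 0 µM day 4 replicate 3 or 2 µM day 4 replicate 1 for Fbn1, and without 2 µM day 4 replicate 2 for Thbs1. Cdkn1c, the p57 inhibitor of cyclin-dependent kinases, had 16.2, 11.7 and 15.5 scaled CPM on day 4 and 11.4, 9.93 and 10.8 on day 2 at 2 µM, against 84.2, 106 and 99.1 on day 4 and 25.6, 18.0 and 23.8 on day 2 at 0 µM (-1.66 ± 0.31 SE, adjusted p = 0.0041). On day 4 no 2 µM library of Col1a1, Tnc or Cdkn1c reached the lowest 0 µM library. Capn6, a calpain without protease activity, differed by -1.01 ± 0.18 SE (adjusted p = 0.0019). In the fit to all 30 libraries the difference of Col1a1 was not called (adjusted p = 0.5).

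**Figure D4:**
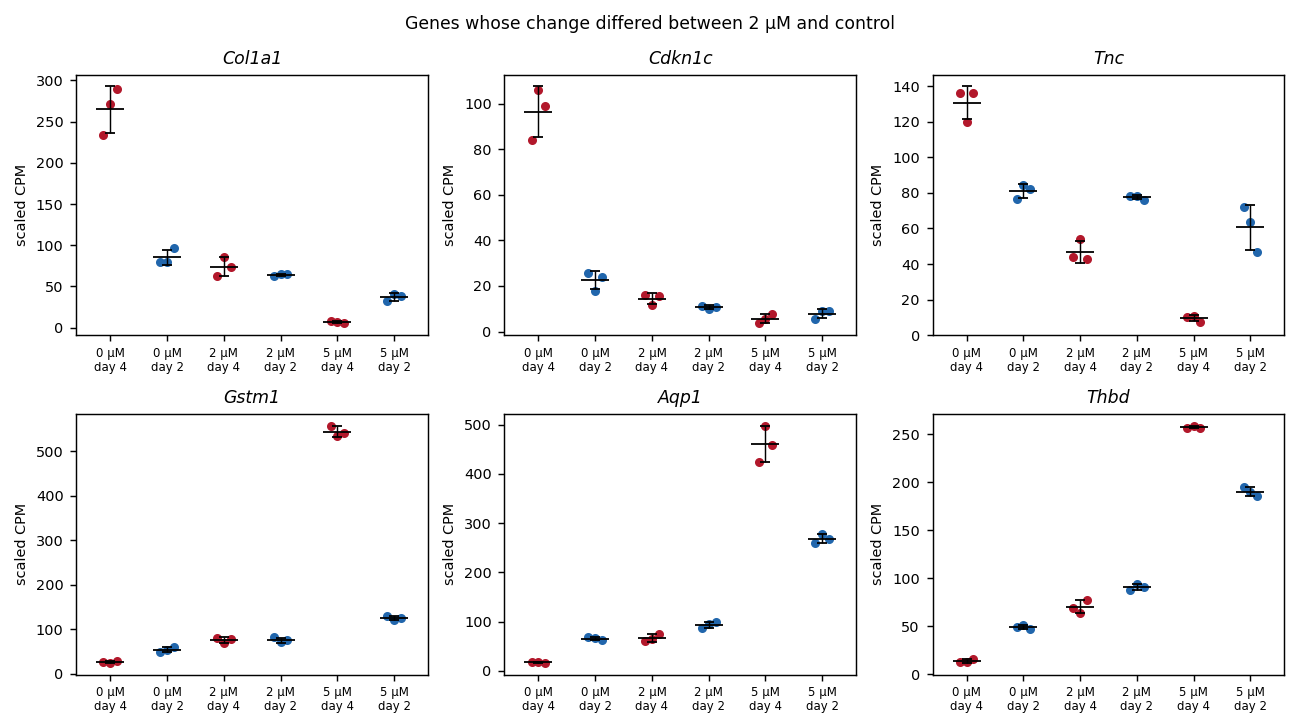
Scaled CPM of Col1a1, Cdkn1c, Tnc, Gstm1, Aqp1 and Thbd at 0, 2 and 5 µM Cr(VI), with day 4 left of day 2 at each dose; points are libraries and bars show the mean ± SD of 3 libraries. On day 4 the 3 libraries at 2 µM lie below those at 0 µM for Col1a1, Cdkn1c and Tnc and above them for Gstm1, Aqp1 and Thbd.

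Set against 5 µM, the progress at 2 µM differed widely, in stress genes and in the matrix. Of 12480 genes 2858 differed (22.9%), 1469 with a higher change at 2 µM (11.8%) and 1389 with a lower one (11.1%). Of these, 86 rose at 2 µM and fell at 5 µM, and 131 fell at 2 µM and rose at 5 µM. At 5 µM itself 5748 genes changed (46.1%), 2966 of them higher on day 4 (23.8%) and 2782 lower (22.3%). Of 29 NRF2 targets 24 had a lower change at 2 µM and none a higher one (median difference -1.12), and 24 of the 29 rose at 5 µM, against 2 at 2 µM. Of 23 genes of ATF4 and amino acid supply 15 had a lower change at 2 µM (median -0.96). Trib3, a pseudokinase induced by amino acid and endoplasmic reticulum stress, had 6.74, 6.04 and 8.27 scaled CPM on day 4 and 7.44, 9.58 and 8.83 on day 2 at 2 µM, against 12.1, 17.0 and 15.4 on day 4 and 0.657, 0.680 and 1.28 on day 2 at 5 µM. The Trib3 values overlapped between the days at 2 µM, and at 5 µM every day 4 library lay above every day 2 library (difference -3.35 ± 0.41 SE, adjusted p = 5.8e-07). Osgin1, an oxidative stress gene, had 6.88, 9.38 and 9.31 scaled CPM on day 4 and 12.8, 9.54 and 13.1 on day 2 at 2 µM, against 38.5, 54.8 and 46.4 on day 4 and 4.95, 12.8 and 10.8 on day 2 at 5 µM (-2.67, adjusted p = 3.9e-06). Mt2, whose promoter is printed above, had 99.6, 83.2 and 72.4 scaled CPM on day 4 and 92.3, 80.5 and 84.3 on day 2 at 2 µM, against 480, 578 and 577 on day 4 and 125, 129 and 160 on day 2 at 5 µM (-1.99). Srxn1 differed by -1.54 and Gstm1 by -2.12.

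Matrix genes went the other way. Of 18 collagens 16 had a higher change at 2 µM and 1 a lower one (median 1.51), and of 29 matrix glycoproteins and proteoglycans 18 had a higher and 1 a lower change (median 0.78). Col6a1, a microfibrillar collagen, had 81.8, 90.4 and 92.7 scaled CPM on day 4 and 117, 129 and 145 on day 2 at 2 µM, against 5.41, 7.48 and 3.85 on day 4 and 71.4, 82.2 and 60.0 on day 2 at 5 µM (2.93, adjusted p = 1.0e-11). Col6a2, its partner chain, had 33.8, 43.3 and 52.8 scaled CPM on day 4 and 44.8, 42.7 and 37.2 on day 2 at 2 µM, against 1.65, 2.08 and 3.09 on day 4 and 20.9, 21.6 and 20.3 on day 2 at 5 µM (2.81, adjusted p = 1.7e-10). The days overlapped at 2 µM for Col6a2, and at 5 µM both chains stood far lower on day 4. The collagens had a lower median change at each higher dose, -0.06 at 0 µM, -0.54 at 2 µM and -2.14 at 5 µM. Tagln, an actin-binding smooth muscle protein that SRF controls, changed by 1.08 at 2 µM and by -1.38 at 5 µM, and its difference of 2.46 ± 0.21 SE passed. Pid1, which dampens insulin signalling, differed by 2.63, with overlapping days at 2 µM and a fall of 2.25 at 5 µM.

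The contractile lists shifted in the same direction by smaller amounts. Of 16 fast sarcomere genes 7 had a higher change at 2 µM and none a lower one (median 0.33), and 15 of the 16 rose at 5 µM. Of 27 Z-disc, M-band and assembly genes 10 had a higher change at 2 µM and 1 a lower one. Pax7 fell less at 2 µM, by 1.30, than at 5 µM, by 2.28 (difference 0.98 ± 0.23 SE, adjusted p = 0.0025). Notch3 fell by 1.52 at 2 µM and by 3.68 at 5 µM (difference 2.17 ± 0.15 SE).

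**Figure D5:**
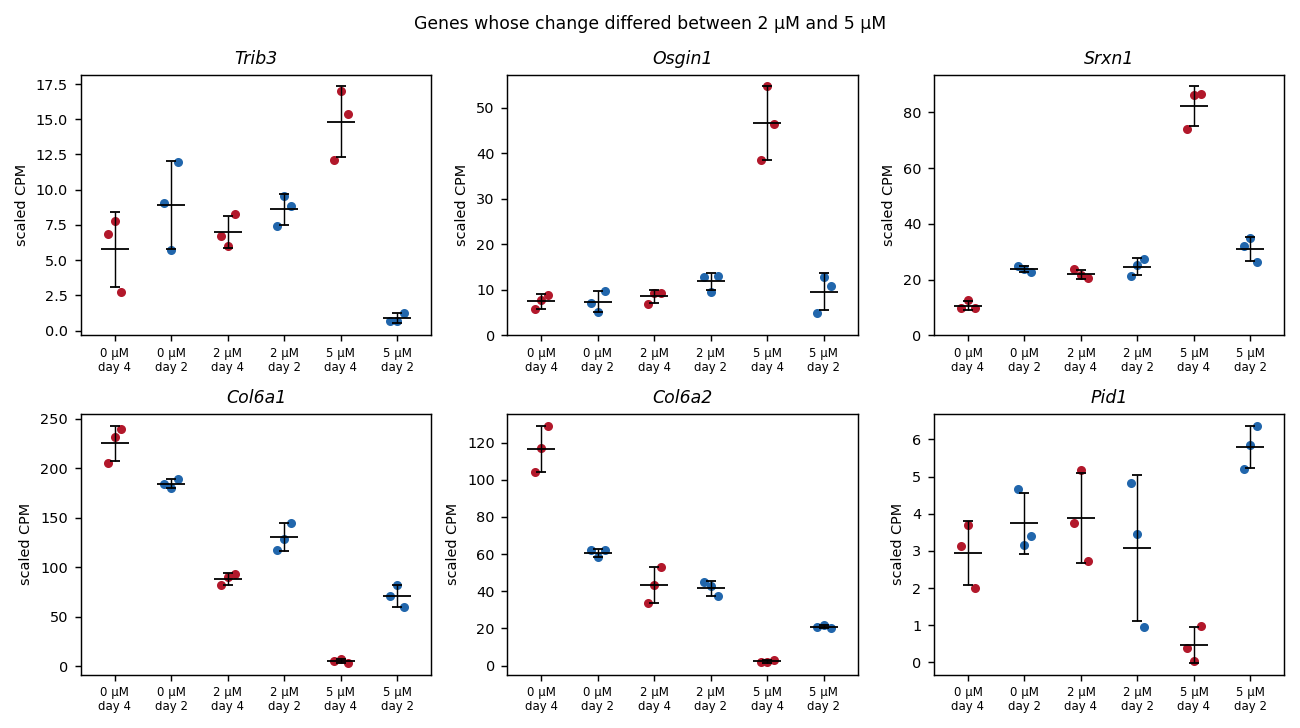
Scaled CPM of Trib3, Osgin1, Srxn1, Col6a1, Col6a2 and Pid1 at 0, 2 and 5 µM Cr(VI), with day 4 left of day 2 at each dose; points are libraries and bars show the mean ± SD of 3 libraries. At 5 µM the day 4 libraries lie above the day 2 libraries for Trib3, Osgin1 and Srxn1 and below them for Col6a1, Col6a2 and Pid1, while at 2 µM the days overlapped for Trib3, Srxn1, Col6a2 and Pid1.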

How the data were processed

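RNA-seq values of C2C12 cells were read from the table the authors deposited, which per its column headers holds CPM per gene. The deposited columns do not share one sum, so the CPM signal carries a further scaling between libraries and is called scaled CPM here. All values were whole multiples of 1 read within 0.02, so reads were also recovered. For the aligner, counter, genome build, strand setting and scaling, the record reads: not given in the sources used here. Columns were matched to samples by the names in the labels.

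Genes with at least 1 scaled CPM in 3 libraries were kept, and log2(scaled CPM + 1) was fitted with limma 3.58.1 in R 4.3.3 over the 18 day 2 and day 4 libraries (12 residual degrees of freedom, adjusted p below 0.05), with contrasts for each dose and for differences between doses. Alternatives were other pseudocounts, filters and scalings, other sets of libraries, a replicate block, edgeR 4.0.16 and DESeq2 1.42.0 on recovered reads, and leaving out each library. The pipeline was also run on simulated data with changes set only at 2 µM on day 4. The outcome of that run is not given here. Members and lists were chosen with earlier results of these data known. Named genes are 30 key genes, the 8 largest called changes each way, and up to 4 called members of each list with the largest change. The 8 largest had a mean of at least 5 scaled CPM. For day 4 against day 2 at 2 µM they also had replicates that did not overlap between the days. Lpl, Srebf1, Dcn, Thbs1, Fbn1, Ephx1, Col1a2 and Srxn1 were named after their values were seen. The listed genes Fth1 and Itgam were not analysed here. Promoters are from the RefSeq table of GRCm38.p6.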

Additional observations from a re-analysis of the deposited data

Results flagged for a closer look

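The change from day 2 to day 4 differed between doses by a direct test of the difference (limma, adjusted p below 0.05), and all values below are log2 differences of changes. Between 2 µM and 0 µM, 79 genes differed. Those with the higher change at 2 µM that met the rule for naming were Hdc (2.23), the predicted gene 1500015O10Rik (1.83), Serpinb9b (1.70), Clec3b, encoding tetranectin (1.67), Aqp1 (1.40), Thbd (1.40), 8430408G22Rik (1.26), Il33 (1.15), Nupr1 (1.06), Aldh3a1 (1.06), Gstm1 (0.98), Ccnd1 (0.73), Mt2 (0.64) and Cp, the copper carrier ceruloplasmin (0.63). Those with the lower change were Fmod, encoding fibromodulin (-2.17), Cdkn1c (-1.66), Cnr1, a cannabinoid receptor (-1.53), Col5a3 (-1.51), Col1a1 (-1.43), Tnc (-1.40), Diaph3, a formin (-1.37), Capn6 (-1.01), Col6a1 (-0.84), Igf2 (-0.66) and Col3a1 (-0.62). Several of these calls were lost when 1 library was left out, each library named being left out alone. The difference of 1500015O10Rik was lost without 0 µM day 2 replicate 2 or 3, or 0 µM day 4 replicate 3, or 2 µM day 2 replicate 1, or 2 µM day 4 replicate 1 or 3. For Clec3b it was lost without 0 µM day 2 replicate 3, or 0 µM day 4 replicate 1 or 3, or 2 µM day 2 replicate 2 or 3, or 2 µM day 4 replicate 1. The difference of 8430408G22Rik was lost without 0 µM day 2 replicate 1, 2 or 3, or 0 µM day 4 replicate 3, or 2 µM day 2 replicate 1 or 2, or 2 µM day 4 replicate 1 or 2. For Aldh3a1 it was lost without 2 µM day 2 replicate 2. The difference of Ccnd1 was lost without 0 µM day 2 replicate 1, or 0 µM day 4 replicate 1, or 2 µM day 2 replicate 1, or 2 µM day 4 replicate 1 or 2. For Mt2 it was lost without 0 µM day 2 replicate 1, 2 or 3, or 0 µM day 4 replicate 1 or 3, or 2 µM day 2 replicate 1, 2 or 3, or 2 µM day 4 replicate 1 or 2. The difference of Cp was lost without 0 µM day 2 replicate 1, or 0 µM day 4 replicate 1, or 2 µM day 2 replicate 2 or 3, or 2 µM day 4 replicate 1. The difference of Fmod was lost without 0 µM day 2 replicate 1, or 2 µM day 4 replicate 1. For Cnr1 it was lost without 0 µM day 2 replicate 2 or 3, or 0 µM day 4 replicate 1, or 2 µM day 2 replicate 1, 2 or 3, or 2 µM day 4 replicate 1. The difference of Col5a3 was lost without 0 µM day 2 replicate 1, or 2 µM day 2 replicate 2. For Diaph3 it was lost without 0 µM day 2 replicate 3, or 0 µM day 4 replicate 1, or 2 µM day 2 replicate 1 or 2. The difference of Col6a1 was lost without 0 µM day 2 replicate 1, 2 or 3, or 0 µM day 4 replicate 3, or 2 µM day 2 replicate 2 or 3, or 2 µM day 4 replicate 1, 2 or 3. For Igf2 it was lost without 0 µM day 2 replicate 1, 2 or 3, or 0 µM day 4 replicate 1 or 3, or 2 µM day 2 replicate 2 or 3, or 2 µM day 4 replicate 1, 2 or 3. The other genes named here were called in all 12 omissions. Fmod held low values, some of them listed at 0, and its value depended on the tool.

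Between 2 µM and 5 µM, 2858 genes differed. The change at 2 µM was higher for the predicted gene Gm7334 (3.45), Col25a1 (3.20), Col6a1 (2.93), Col6a2 (2.81), Rundc3a (2.68), Pid1 (2.63), Myl2 (2.59), Frem2, a basement membrane protein (2.54), Col1a1 (2.53) and Tagln (2.46). It was also higher for Pax7 (0.98), Ccnd1 (0.93), Casq1 (0.89), Cdkn1c (0.83), Myh3 (0.74), Mef2c (0.48), Gm7325 (0.47) and Actc1, the cardiac actin of early myotubes (0.38). It was lower for Trib3 (-3.35), the predicted gene Gm14308 (-3.16), Mmp3, encoding stromelysin (-3.05), Prl2c2 (-2.85), Tmem173, encoding STING (-2.70), Sim1 (-2.68), Osgin1 (-2.67) and Cyp1a1, a xenobiotic oxidase (-2.65). Among key genes it was lower for Ddit3 (-2.18), Gstm1 (-2.12), Mt2 (-1.99), Nqo1 (-1.79), Aldh3a1 (-1.40), Mt1 (-1.38), Hmox1 (-1.07) and Fbxo32 (-0.89). The difference of Mef2c was lost without 5 µM day 4 replicate 2. For Casq1 it was lost without 2 µM day 2 replicate 1, or 5 µM day 2 replicate 2, or 5 µM day 4 replicate 3. The difference of Gm7325 was lost without 2 µM day 2 replicate 1 or 2, or 2 µM day 4 replicate 1, 2 or 3, or 5 µM day 2 replicate 2 or 3, or 5 µM day 4 replicate 1 or 3. For Cdkn1c it was lost without 2 µM day 2 replicate 1, 2 or 3, or 2 µM day 4 replicate 1 or 3, or 5 µM day 2 replicate 2 or 3, or 5 µM day 4 replicate 1 or 2. The difference of Gm7334 was lost without 2 µM day 2 replicate 1, or 2 µM day 4 replicate 1 or 2, or 5 µM day 2 replicate 2, or 5 µM day 4 replicate 3. For Gm14308 it was lost without 2 µM day 2 replicate 1, or 5 µM day 4 replicate 2 or 3. Prl2c2 is near-identical to Prl2c3, and Mt1 resembles Mt2. How the counting treated reads that match both genes of a pair was not given, so their values are uncertain. Col25a1, Frem2, Mmp3, Sim1 and Cyp1a1 held values listed at 0 in some libraries. On recovered reads neither edgeR nor DESeq2 called the difference of these 5 genes or of Casq1, Gm7334 and Myl2, and DESeq2 did not call that of Gm14308.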

How the results depend on the processing

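The count of 3669 changed genes at 2 µM and the count of 2858 genes that differed from 5 µM stayed within 1.5 times under every alternative run. The count of 79 genes that differed from 0 µM moved to 34 in the fit to all 30 libraries and to 137 with DESeq2, and the cause was not tested. With 1 library left out the counts were 3018 to 3199 for the change at 2 µM, 38 to 124 against 0 µM and 2365 to 2827 against 5 µM. Same-numbered replicates shared little deviation between the days at 2 µM (correlations 0.0457, 0.0111 and 0.0248), and other-numbered ones ran from -0.0360 to 0.0154. Correlations near 0 cannot show whether the numbers mark a shared culture or day, and the main fit did not pair the samples. With the replicate block the counts were 3629 for the change at 2 µM, 71 against 0 µM and 2835 against 5 µM. Signs reversed for Fmod against 0 µM (0.26 with DESeq2, 0.73 with edgeR) and for Mki67 against 5 µM (3.05 with DESeq2, 2.92 with edgeR), both low genes. For named genes, apart from omissions of a library, 3455 values kept their direction and side of the threshold, 94 no longer passed, 12 newly passed and 4 reversed. Quantile normalization was the only alternative that called Acta1 (0.58) and Tnnt3 (0.40) against 0 µM. Of pairs with 11 to 20 reads in 1 replicate at 2 µM, 31.6% were listed at 0 in the other, and whether these are failed estimates was not tested.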

Other observations

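Other gene groups at 2 µM divided. Of 22 glycolysis and hypoxia genes 8 rose and 6 fell on day 4 against day 2 (63.6% changed, against 29.4% of all genes tested). Egln3, a prolyl hydroxylase of the hypoxia pathway, rose by 0.87 and Hk2, a hexokinase, by 0.72 on the log2 scale. Ndrg1, a hypoxia-induced gene in this list, fell by 0.82. The rises numbered 5 to 7 with 1 library left out, and moved past 1.5 times without 2 µM day 2 replicate 1 and without 2 µM day 4 replicate 3. Of 24 ribosome biogenesis genes 8 rose and 1 fell, with Rrp12, a processing factor, up by 0.79. In this list 37.5% changed, against 29.4% of all genes tested. Of 33 ribosomal protein genes 8 fell and 1, Rpl27, rose, so that 27.3% changed, against 29.4% of all genes tested; the falls numbered 3 to 8 with 1 library left out, and moved past 1.5 times without 2 µM day 2 replicate 1 or 2 and without 2 µM day 4 replicate 2. Of 18 immediate early genes 6 fell and 1 rose, Nr4a1, an orphan nuclear receptor, up by 1.33 and Egr1 down by 0.78. The changed share here was 38.9%, against 29.4% of all genes tested. Of 16 smooth muscle and SRF or YAP targets that passed the filter 5 fell and 4 rose (56.2%, against 29.4% of all genes tested). Ctgf, a matricellular protein, rose by 1.54 and Tagln by 1.08, while Tpm4, a cytoskeletal tropomyosin, fell by 0.87 and Flna, encoding filamin A, by 0.83.

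Among D cyclins, CDK inhibitors and Rb family genes, 2 of 11 that passed the filter rose and 2 fell. The share that changed was 36.4%, against 29.4% of all genes tested. Rbl1, the p107 pocket protein of cycling cells, fell by 1.09, Ccnd2 fell by 0.48 (adjusted p = 0.21 in a fit to all 30 libraries), and Ccnd3, the D cyclin known to accumulate in myotubes, rose by 0.26. Cdh1, an epithelial cadherin, had 12.5, 13.1 and 10.2 scaled CPM on day 4 and 2.00, 3.41 and 6.31 on day 2 (1.48). It was the highest of 6 epithelial markers, and the other 5 stayed below 1 scaled CPM in all 6 libraries. Of these, Epcam, Sftpc and Sftpb were listed at 0 in all 6. The phospholemman family gene Fxyd6 had 31.6, 29.7 and 33.9 scaled CPM on day 4 and 1.55, 1.18 and 1.73 on day 2 (3.72).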
